A study of Danio rerio with 12 samples.

Results

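The genes described here are 6 that mark retinal ganglion cells: isl1a, irx4a, robo2, sncgb, chrnb3a and cntn1b. They were chosen by annotated symbol and are measured by 9 of the 15617 probe sets on the array, or 6 of 8793 named genes. In the ONX group the left optic nerve of wild-type adult male zebrafish was crushed with forceps, and in the SHAM group the right eye of the same animals was moved out of its socket and back with an intact nerve. Whole eyes, with lens and both eye segments as well as retina, were taken at 4, 12 and 21 days and combined into pools of 5 eyes, 2 pools for each of the 6 groups, and each pool was read on 1 Affymetrix array. The design asks which transcripts in the eye respond to the crush at each of these times. Every crushed eye was a left eye and every sham eye a right eye, so the injury and the side of the body cannot be told apart.

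Retinal ganglion cells are the output neurons of the retina. Their axons form the optic nerve, so a crush of that nerve cuts or damages these cells' axons directly, while photoreceptors and interneurons send no axon into it. Adult fish, unlike mammals, regrow these axons to the brain. The 6 genes cover several parts of the cell's machinery. Isl1a is a LIM homeodomain transcription factor of the Islet family, which is also made in amacrine and bipolar cells of the vertebrate retina, and irx4a is a transcription factor of the Iroquois family, whose chick counterpart is made in ganglion cells. Robo2 is a receptor for the axon guidance protein Slit, and zebrafish that lack it (astray mutants) misroute their retinal axons. Cntn1b is a contactin, an adhesion molecule anchored in the membrane of axons. Sncgb is a gamma-synuclein, whose rodent counterpart is a widely used ganglion cell marker, and chrnb3a is the beta3 subunit of nicotinic acetylcholine receptors, known from ganglion cells of fish and birds.

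Some arrays stood apart. ONX day 4 pool 1 had a median log2 signal of 12.74 over 12 oocyte genes, against 4.67 to 6.48 on the other arrays, although the labels name male fish; its Spearman correlations with the other arrays across 9301 probe sets were 0.717 to 0.810, against 0.851 to 0.973 among the other 11. At day 12 gap43, a growth-cone protein of regenerating axons, went against the labels. It read 7.95 in the array labelled ONX pool 1 and 12.32 in ONX pool 2, against 12.68 in the array labelled SHAM pool 1 and 7.85 in SHAM pool 2. At day 4 gap43 read 12.09 and 12.22 in the ONX pools, against 7.65 and 7.73 in the SHAM pools. At day 21 it read 7.93 and 9.38 in the ONX pools, against 10.15 and 9.18 in the SHAM pools. Directions given for days 12 and 21 therefore rest on arrays named by label only, and results are given with and without the arrays in question.

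**Figure D1:**
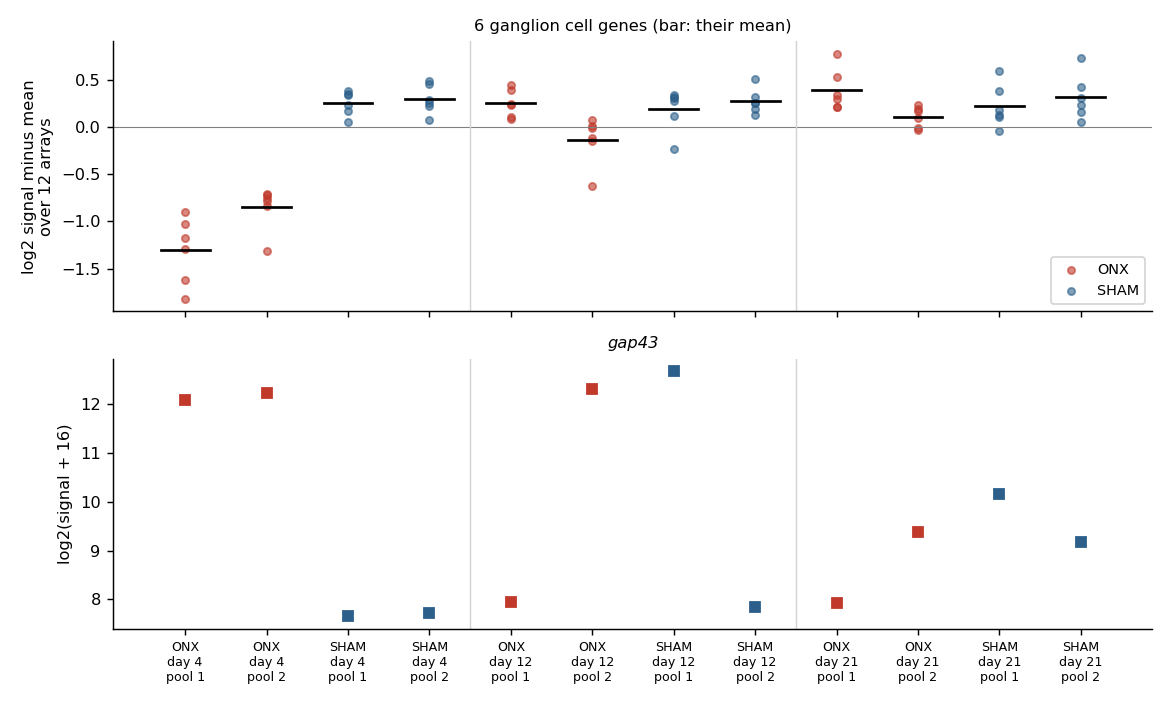
Upper panel: log2 signal of each of the 6 ganglion cell genes (points) on each of 12 arrays, less that gene's mean over the arrays, with the mean of the 6 as a bar. Lower panel: log2 signal of gap43. The 6 genes averaged -1.31 and -0.85 in the ONX day 4 pools and between -0.14 and 0.39 on the other 10 arrays, while gap43 was high in 1 ONX and 1 SHAM array at day 12.

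Signals were used as deposited, with 16 added before log2 was taken, and differences are ONX minus SHAM on that scale, which understates the change of dim genes. Where a gene has several probe sets, the brightest by its mean over the 12 arrays stands for it. A change was called where the adjusted p of limma's moderated test, by Benjamini and Hochberg over all 9301 tested probe sets, was under 0.05; errors after ± are standard errors of that fit with n = 2 pools per group. All 9 probe sets of the 6 genes were among those tested, with mean log2 values of 7.37 to 12.47, above the limit of 7.24. With 2 arrays per group, the number of arrays limits the precision, and p-values measure the spread between pools.

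At day 4 after the crush all 6 genes were lower in ONX than in SHAM eyes, by 2.05-fold for chrnb3a to 3.52-fold for irx4a. All 6 were called in limma's test (adjusted p of 0.0176 to 0.0255), where 17.0% of all tested probe sets were called, 11.7% lower and 5.29% higher. At days 12 and 21 none of the 6 was called. The genes were chosen with results of these data known, so the day 4 count is not independent evidence. Their median at day 4 was -1.32, against -0.09 over all tested probe sets, and 3.19% of all tested differences lay at or below it. Genes of other retinal cells were lower at day 4 too: 8 of 9 tested rod genes (median -1.46) and 13 of 14 amacrine and bipolar genes (median -1.21) were called lower, as were 8 of 8 genes of the synaptic list (median -1.26), while 5 of 12 microglia and macrophage genes were called higher (median 1.51). Their part in the values of the 6 genes was not tested. The arrays were scaled to a common mean. In whole eyes, fewer cells of a type, less RNA per cell and more RNA from other cells cannot be told apart.

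Among the transcription factors, isl1a had signals of 571 and 696 in the ONX day 4 pools, against 1544 and 1438 in the SHAM day 4 pools. Both crushed pools were thus well below both sham pools, and the difference was -1.22 ± 0.20, or 2.33-fold lower (adjusted p = 0.0176, limma). The isl1a probe set with these values, Dr.12208.1.S1_s_at, carries the suffix that marks probes able to match more than 1 transcript. The second isl1a probe set, Dr.279.1.S1_at, had 108 and 158 in the ONX pools, against 203 and 257 in the SHAM pools. There too the groups did not overlap, but the difference of -0.73 ± 0.30 did not pass the test (adjusted p = 0.109, limma). With both isl1a probe sets averaged, a setting chosen after the data were seen, the difference was -0.98 ± 0.23 (adjusted p = 0.0245, limma).

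Irx4a (Dr.25775.1.S1_at) had the deepest fall of the 6. Its signals were 49.9 and 77.9 in the ONX day 4 pools, against 224 and 303 in the SHAM day 4 pools, a difference of -1.82 ± 0.26 (adjusted p = 0.0176, limma). Of all tested probe sets, 0.247% had a difference at or below that of irx4a. On the other 10 arrays irx4a stayed between 7.91 and 8.45 in log2 signal, so the ONX day 4 pools, at 6.04 and 6.55, were the only arrays below that range.

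Robo2 (Dr.12403.1.S1_at), the Slit receptor, had signals of 410 and 573 in the ONX day 4 pools, against 1210 and 1001 in the SHAM day 4 pools. Its difference was -1.16 ± 0.24, or 2.23-fold lower (adjusted p = 0.0176, limma). Cntn1b (Dr.16729.1.A1_at), the contactin, had 146 and 272 in the ONX day 4 pools, against 543 and 577 in the SHAM day 4 pools. Its difference of -1.42 ± 0.34 had the widest error of the 6 and the highest adjusted p, 0.0255 in limma's test. The ONX day 4 pools of cntn1b, at 7.34 and 8.17 in log2 signal, were further apart than those of the other 5 genes, against 9.13 and 9.21 in the SHAM pools.

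Sncgb, the gamma-synuclein, had signals of 2310 and 3174 in the ONX day 4 pools, against 7157 and 7912 in the SHAM day 4 pools, by its brightest probe set (Dr.14576.1.S1_at). That difference was -1.47 ± 0.27, or 2.77-fold lower (adjusted p = 0.0176, limma). The sncgb probe set Dr.14576.2.S1_at gave nearly the same size, -1.45 ± 0.29 (adjusted p = 0.0176, limma). The dimmest, Dr.14576.3.A1_at, had 90.8 and 108 in the ONX pools, against 153 and 189 in the SHAM pools, and its difference of -0.70 ± 0.27 was not called (adjusted p = 0.0925, limma). Chrnb3a (Dr.26446.1.S1_at), the receptor subunit, had signals of 133 and 153 in the ONX day 4 pools, against 310 and 308 in the SHAM day 4 pools. Its difference was -1.04 ± 0.19, the smallest of the 6 genes, with SHAM pools that nearly coincided (adjusted p = 0.0176, limma).

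**Figure D2:**
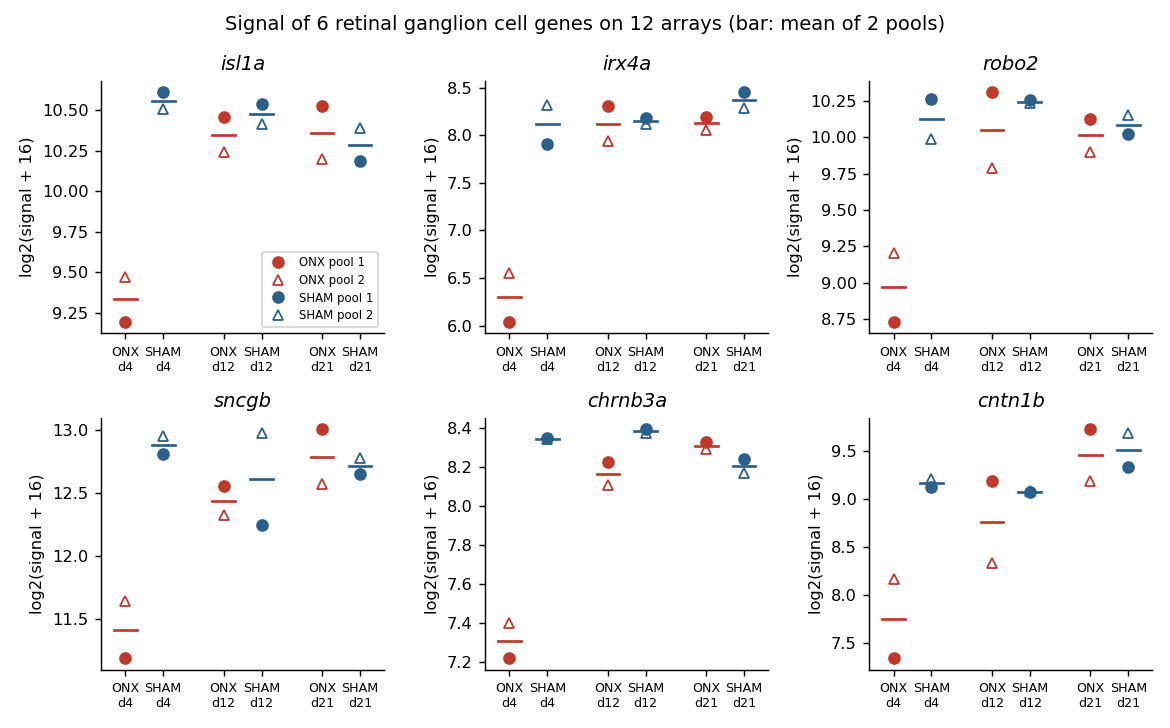
Log2(signal + 16) of each gene's brightest probe set on every array, with ONX in red and SHAM in blue, pool 1 as filled circles, pool 2 as open triangles and the mean of the 2 pools as a bar. In all 6 genes both ONX day 4 pools lie below the other 10 arrays. The ONX and SHAM means lie closer at days 12 and 21, but single arrays stand apart. Cntn1b read 8.33 in ONX day 12 pool 2, and sncgb read 12.24 and 12.97 in the SHAM day 12 pools. The vertical axes differ between genes and do not start at 0.

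Over all 9 probe sets, 7 were called lower at day 4, and in 9 of 9 both ONX pools lay below both SHAM pools, which held for 36.1% of all tested probe sets. In 6 of 6 genes, and in 8 of 9 probe sets, both ONX day 4 pools also lay below every one of the other 10 arrays, against 19.2% of all tested probe sets. The exception was Dr.279.1.S1_at of isl1a, where ONX day 12 pool 2, at 7.23, lay below the higher ONX day 4 value of 7.44. The lowest of all 12 arrays was ONX day 4 pool 1 in 9 of 9 probe sets. No share of all tested probe sets was counted for this. Pool 1 was below ONX day 4 pool 2 in all 9, and was the higher of the ONX day 4 pools in 35.5% of all tested probe sets. Among all tested probe sets with both ONX day 4 pools below the SHAM day 4 mean, pool 1 was the lower in 82.4%.

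ONX day 4 pool 1 is also the array with the oocyte signal. Against the SHAM day 4 mean, the 6 genes had a median difference of -1.54 in ONX pool 1 and -1.04 in ONX pool 2, where all tested probe sets had -0.22 and -0.04. Without ONX day 4 pool 1 the 6 differences were -1.56 (irx4a) to -0.92 (robo2), with irx4a still the deepest, and 0 of 6 were called (adjusted p of 0.0678 to 0.115, limma, with the lone ONX pool taken to vary like the other groups). No tested probe set at all was called in that fit. The cause of the lost calls was not tested. Without SHAM day 4 pool 1 the 6 differences were -2.02 to -1.02, and without SHAM day 4 pool 2 they were -1.61 to -1.04. Each of these fits left 1 SHAM array at day 4, and the day 4 calls were lost for the 6 genes as for all tested probe sets. Calls were also 0 of 6 with arrays weighted by their quality (adjusted p of 0.105 to 0.122, limma) and with the day 4 arrays alone (0.0742 to 0.111). A replicate block on the numbers of the pools gave 0 of 6 as well (0.0545 for each). Over all tested probe sets 0 were called with array weights, 10 with the day 4 arrays alone and 0 with the replicate block. The loss was thus not limited to the 6 genes. Their differences kept their sign in each fit. ONX and SHAM eyes come from the same fish, but the labels do not say that pools of the same number hold the same fish.

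Arrays were scaled by the authors to a common mean, and spiked-in control RNAs showed how far the day 4 arrays moved under another scaling. Bacterial hybridisation controls, which are added at the end, read -0.55 and -0.40 in the ONX day 4 pools relative to the SHAM day 4 mean, and -0.31 to 0.02 elsewhere. Poly-A controls read -0.88 in ONX day 4 pool 1 and 0.15 in pool 2. After scaling to the hybridisation controls the median difference of the 6 genes was -0.85 and that of all tested probe sets 0.38, and 5 of 6 were called lower. The sixth, chrnb3a, had -0.57 (adjusted p = 0.0534, limma). In that scaling 2429 of 9301 tested probe sets were called in either direction, and those called lower were not counted apart. With poly-A scaling the median of the 6 was -0.95, that of all tested probe sets 0.28, and 0 of 6 were called (adjusted p of 0.0889 to 0.276, limma).

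**Figure D3:**
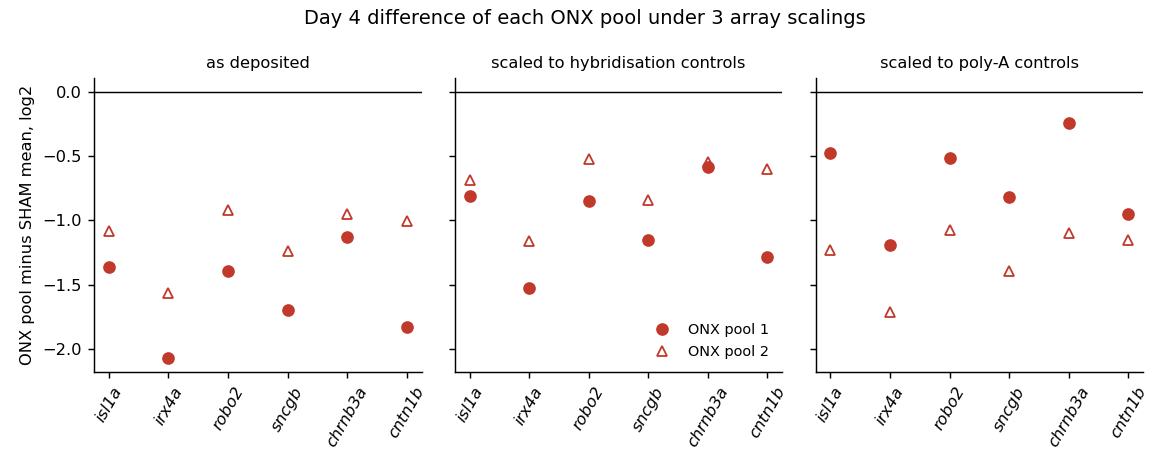
Difference of each ONX day 4 pool from the mean of the SHAM day 4 pools, in log2(signal + 16), for 6 genes with the arrays as deposited, scaled to hybridisation controls and scaled to poly-A controls. All 12 points in each panel lie below 0. Pool 1 (filled circles) is the lower one as deposited and the higher one with poly-A scaling.

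By their brightest probe sets, the 6 genes differed by -0.32 (cntn1b) to -0.03 (irx4a) between ONX and SHAM eyes at day 12, with a median of -0.18. None was called (adjusted p of 1 in limma's test, unadjusted p of 0.262 or more), and over all tested probe sets 0% were called and 0.290% had an unadjusted p under 0.05. The 95% intervals of the 6 differences ran from -1.08 at the lowest to 0.54 at the highest. For irx4a the interval was -0.59 to 0.54, and for isl1a -0.56 to 0.31, so the sizes seen at day 4 lay outside both. For cntn1b the interval was -1.08 to 0.44, and for sncgb -0.76 to 0.42. These intervals did not reach the day 4 difference of the same gene either, nor did those of robo2 and chrnb3a. That holds for the brightest probe sets, and the day 4 differences have errors of their own. For Dr.279.1.S1_at of isl1a the day 12 interval, -0.859 to 0.485, did reach its day 4 difference of -0.734.

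Single arrays differed more than the group means at day 12. Cntn1b had signals of 569 and 306 in the ONX pools, against 522 and 527 in the SHAM pools, so that ONX pool 2 alone was low. Robo2 had 1251 and 870 in the ONX pools, against 1207 and 1188 in the SHAM pools, again with ONX pool 2 lowest. Sncgb had 5989 and 5100 in the ONX pools, against 4821 and 8031 in the SHAM pools, where the array labelled SHAM pool 1 was the lowest of the 4. Irx4a had 301 and 229 in the ONX pools, against 274 and 261 in the SHAM pools, and isl1a 1391 and 1192, against 1468 and 1346; in both genes the groups overlapped. Chrnb3a had 283 and 259 in the ONX pools, against 320 and 316 in the SHAM pools. By the brightest probe sets it was the 1 gene of 6 whose ONX pools were both lower. Over all 9 probe sets this held in 2, against 7.48% of all tested probe sets. The other was Dr.14576.2.S1_at of sncgb, with 1035 and 816 in the ONX pools, against 1055 and 1549 in the SHAM pools. Its difference of -0.47 ± 0.29 was the deepest of the 9 probe sets at day 12 and was not called (unadjusted p = 0.134, limma).

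The arrays with high gap43 at day 12 were ONX pool 2 and the array labelled SHAM pool 1. They also had the higher median over 18 axon regeneration genes (10.77 and 11.15). That median was 9.27 in the array labelled ONX pool 1 and 9.31 in SHAM pool 2. The list of 18 holds gap43 itself and was chosen with results of these data known, so it is not independent of gap43. Averaged over the 6 ganglion cell genes and centred on the mean of all arrays, the arrays with high gap43 read -0.14 in ONX pool 2 and 0.19 in SHAM pool 1; those with low gap43 read 0.25 in ONX pool 1 and 0.27 in SHAM pool 2. Without the arrays labelled ONX and SHAM day 12 pool 1, which was decided after the data were seen, the 6 day 12 differences were -0.76 (cntn1b) to -0.17 (isl1a) with a median of -0.36, over 1.5 times that of all arrays. Sncgb then had -0.65 ± 0.31 and robo2 -0.44 ± 0.31. None of the 6 was called (adjusted p of 0.788 to 0.991, limma), and the 6 day 4 calls were kept. Each group then had 1 array at day 12, which was taken to vary like the others.

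At day 21 the 6 differences lay on both sides of 0, from -0.25 (irx4a) to 0.11 (chrnb3a), with a median of 0.01. None was called (adjusted p of 1 in limma's test, unadjusted p of 0.36 or more), where 0% of all tested probe sets were called and 0.129% had an unadjusted p under 0.05. The 95% intervals of the brightest probe sets ran from -0.81 at the lowest to 0.71 at the highest. They did not reach the day 4 difference of the same gene, which has an error of its own, for any of the 6. For Dr.279.1.S1_at of isl1a the interval was -0.855 to 0.49 and reached its day 4 difference of -0.734. For Dr.14576.3.A1_at of sncgb it was -0.799 to 0.393 and reached its day 4 difference of -0.696. Irx4a had signals of 277 and 249 in the ONX pools, against 333 and 296 in the SHAM pools, and was the 1 gene with both ONX pools lower (11.6% of all tested probe sets). Chrnb3a had 305 and 297 in the ONX pools, against 286 and 271 in the SHAM pools, and was the 1 gene with both ONX pools higher (12.1% of all). Without the 4 pool 1 arrays of days 12 and 21, a setting chosen after the data were seen, the day 21 differences were -0.50 (cntn1b) to 0.13 (chrnb3a) with a median of -0.22; none was called at day 21, and the 6 day 4 calls were lost (adjusted p of 0.0718 to 0.107, limma, with 10 of 9301 probe sets called).

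In the other 4 genes the groups overlapped at day 21. Isl1a had 1453 and 1159 in the ONX pools, against 1148 and 1324 in the SHAM pools. Cntn1b had 833 and 568 in the ONX pools, against 630 and 809 in the SHAM pools. Sncgb had 8196 and 6053 in the ONX pools, against 6401 and 7004 in the SHAM pools, and robo2 1103 and 938, against 1023 and 1119, so that no group of pools lay wholly above or below the other in any of the 4. ONX pool 1 lay above ONX pool 2 in 9 of 9 probe sets at day 21 and in 9 of 9 at day 12, against 52.3% and 54.1% of all tested probe sets.

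**Figure D4:**
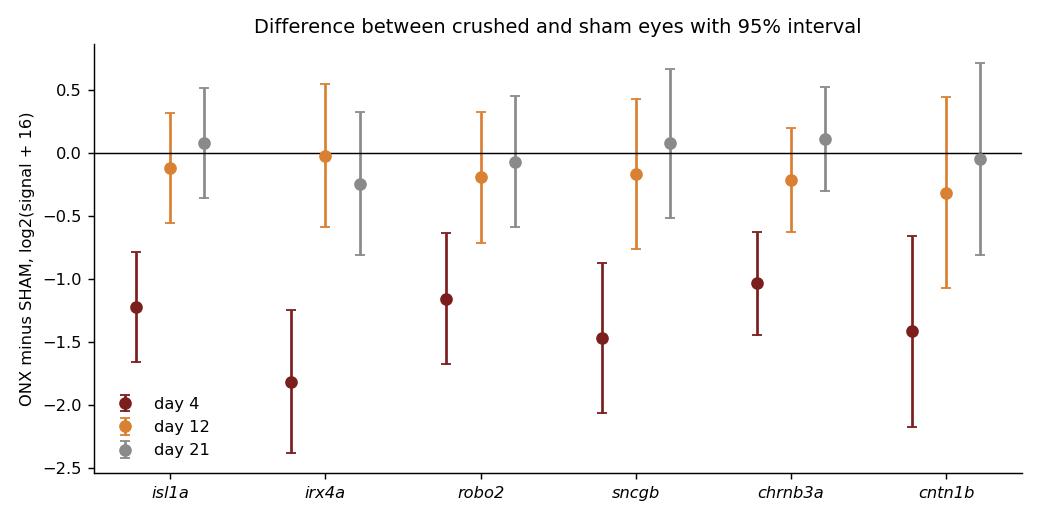
ONX minus SHAM difference in log2(signal + 16) of each gene at days 4, 12 and 21, with the 95% interval of the limma fit (n = 2 pools per group). The day 4 intervals lie between -2.38 and -0.63, below 0 for all 6 genes, and every interval at days 12 and 21 includes 0.

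The difference between the days was tested directly. The day 12 difference was above the day 4 difference by 0.82 (chrnb3a) to 1.79 (irx4a), and the day 21 difference was above it by 1.09 (robo2) to 1.57 (irx4a). In the F-test across the 3 days, none of the 6 genes was called after adjustment (adjusted p of 0.261 to 0.329, limma) and 0% of all tested probe sets were; unadjusted p-values of the 6 genes were 0.000998 to 0.04, all under 0.05, as for 14.1% of all tested probe sets. These are the brightest probe sets. In the same F-test Dr.14576.2.S1_at of sncgb had an unadjusted p of 0.0123. Dr.279.1.S1_at of isl1a had 0.369 and Dr.14576.3.A1_at of sncgb had 0.134. That the ONX effect differs between days thus did not pass the adjusted test. Averaged over the days, the 6 differences were -0.70 (irx4a) to -0.38 (chrnb3a), with an adjusted p of 0.283 for each in limma's test (0% of all called). An unadjusted p under 0.05 was found in 6 of 6 genes and in 7 of 9 probe sets, against 14.9% of all.

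Within ONX eyes the 6 genes were lowest at day 4. Irx4a was called across the 3 days in ONX eyes (adjusted p = 0.0356, limma F-test), as were 0.333% of all tested probe sets, and the other 5 genes had adjusted p-values of 0.0576 to 0.0598. That call was lost with either control scaling, with array weights and with no limit on signal. The number of calls also changed without the arrays labelled ONX and SHAM day 12 pool 1, which left 1 array per group at day 12. In SHAM eyes none of the 6 was called across days (0% of all; adjusted p of 1 for each, unadjusted p of 0.403 or more, limma F-test), and 1.85% of all tested probe sets had an unadjusted p under 0.05.

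Of 28 other genes listed for ganglion cells, 14 were on the array, and 5 were bright enough for the test. Barhl2, a homeodomain transcription factor of ganglion and amacrine cells, was 1 of 5 called lower at day 4, a share to be read against 11.7% of all tested probe sets, at -1.23 ± 0.30 (adjusted p = 0.0257, limma); it had log2 signals of 7.70 and 8.49 in the ONX pools, against 9.30 and 9.36 in the SHAM pools. Robo3, a further Robo receptor, had -0.81 ± 0.27 (adjusted p = 0.0645, limma), irx1a -0.44 and the adhesion molecule alcama -0.15. Thy1, a surface glycoprotein used as a ganglion cell marker in rodents, differed the other way, by 1.70 ± 0.58, and was not called (adjusted p = 0.0646, limma); it read 13.08 and 11.15 in the ONX pools, against 10.43 and 10.40 in the SHAM pools, highest in the array with the oocyte signal. Scaled to the hybridisation controls, barhl2 was not called (-0.76, adjusted p = 0.0661, limma), thy1 was called higher (2.17, adjusted p = 0.0373, limma), and irx1a and alcama lay above 0, at 0.04 and 0.32.

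With no limit on signal, pou4f2, a POU transcription factor needed for ganglion cell development in the mouse, was also called lower at day 4; it is named here after its values were seen. Its log2 signals were 5.77 and 5.83 in the ONX pools, against 7.40 and 7.72 in the SHAM pools, a difference of -1.76 ± 0.40 (adjusted p = 0.0359, limma without the limit). At day 12 pou4f2 read 7.45 and 7.53 in the ONX pools, against 8.05 and 6.68 in the SHAM pools, and at day 21 it read 7.49 and 7.92 in the ONX pools, against 7.40 and 7.39 in the SHAM pools. Isl2a, an Islet gene of the same family as isl1a, had -1.31 ± 0.42 at day 4 (adjusted p = 0.0815, limma without the limit). Pou4f2 and isl2a had the deepest values of the 9 listed genes too dim for the main test. Eomesa (1.265 ± 0.834) and atoh7 (0.494) lay above 0 at day 4. Eomesa read 9.82 in ONX pool 1, the array with the oocyte signal. In ONX pool 2 it read 6.35, below both SHAM pools at 7.01 and 6.63. Tbr1b (-0.799), mafaa (-0.652), chrnb3b (-0.331), dlx2a (-0.255) and zic1 (-0.172) lay below 0, and pou4f2 alone of the 9 was called. In that fit 2 of 14 listed genes were called lower, barhl2 and pou4f2, where 5.24% of all 15502 probe sets were. Whether the listed genes differ from the 6 was not tested.

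The lists tied to the 6 genes were counted at day 4 in the same way. Their counts are to be read against 11.7% of all tested probe sets called lower. Each list also counts its own gene of the 6, which was chosen with results of these data known. The LIM list also holds LIM-only genes and cofactors, and isl1a was its only LIM homeodomain gene bright enough for the test. Of the list's 7 tested genes, 5 were called lower, among them isl1a. The other 4 were the LIM-only genes lmo1 (-1.18 ± 0.26), lmo2 (-1.27 ± 0.37), lmo3 (-0.99 ± 0.30) and lmo4b (-0.85 ± 0.25). Their adjusted p was 0.0202 to 0.0481 in limma's test. The cofactor ldb1a had -0.87 (adjusted p = 0.0634, limma) and lmo4a 0.08. Of 5 Iroquois genes only irx4a was called; irx7 had -1.01 (adjusted p = 0.0541, limma), and irx3a, irx5a and irx1a had -0.59 to -0.44. All 5 Iroquois differences were below 0, except that irx1a lay at 0.04 when scaled to the hybridisation controls. Of 4 genes of the Slit and Robo list only robo2 was called, while the ligand slit2 had -0.81 (adjusted p = 0.0733, limma) and robo1 -0.42. Scaled to the hybridisation controls, 2 of 7 genes of the LIM list were called lower, isl1a and lmo1 (-0.71, adjusted p = 0.0445, limma). Irx4a and robo2 remained the called genes of their lists, and robo1 lay at 0.05. Under that scaling 2429 of 9301 tested probe sets were called in either direction, and those called lower were not counted apart.

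Both synucleins tested were called lower, since sncb, a beta-synuclein, had -0.95 ± 0.23 beside sncgb (adjusted p = 0.0255, limma); with hybridisation control scaling sncb had -0.48 and was not called (adjusted p = 0.143, limma). Of 2 nicotinic receptor subunits tested, chrna1, a subunit of the muscle receptor, had -0.003 (adjusted p = 0.996, limma), with log2 signals of 6.82 and 7.54 in the ONX pools, against 7.04 and 7.34 in the SHAM pools, and 0.47 as its difference when scaled to the hybridisation controls. Of 3 contactin genes and partners, tnr (tenascin-R), a matrix protein that binds contactin, was called lower with cntn1b, at -1.34 ± 0.28 (adjusted p = 0.0187, limma). The paralog cntn1a had 0.25 ± 0.33 (adjusted p = 0.604, limma), so that the values of the contactin 1 paralogs lay on opposite sides of 0; whether they differ was not tested.

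Beside the amacrine and bipolar, synaptic and rod lists given above, 10 of 12 cone genes were called lower at day 4 (median -0.99). Of all tested probe sets, 11.7% were called lower at day 4 and 5.29% higher. The amacrine and bipolar list also holds barhl2, and synaptic genes are made by ganglion cells as well as by other neurons. Scaled to the hybridisation controls, 7 of 14 amacrine and bipolar genes (median -0.74), 7 of 8 synaptic genes (-0.79), 7 of 9 rod genes (-0.99) and 6 of 12 cone genes (-0.52) were called lower. Over all 9301 tested probe sets, 2429 were called in either direction under that scaling, and those called lower were not counted apart. With poly-A scaling 0 genes of these lists were called, as for all tested probe sets. The summed signal of 9 rod genes was 43690 and 52100 in the ONX day 4 pools, against 105700 and 109400 in the SHAM day 4 pools and 68390 to 109800 on the later arrays. The summed signal of 16 amacrine and bipolar genes was 11420 and 16770 in the ONX day 4 pools, against 33180 and 33010 in the SHAM day 4 pools. Mueller glia genes were divided, with 3 called lower and 1 higher of 13 (median 0.007, and 0.48 with hybridisation control scaling). The lists' differences from one another were not tested. No gene of these lists was called at day 12 or 21.

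**Figure D5:**
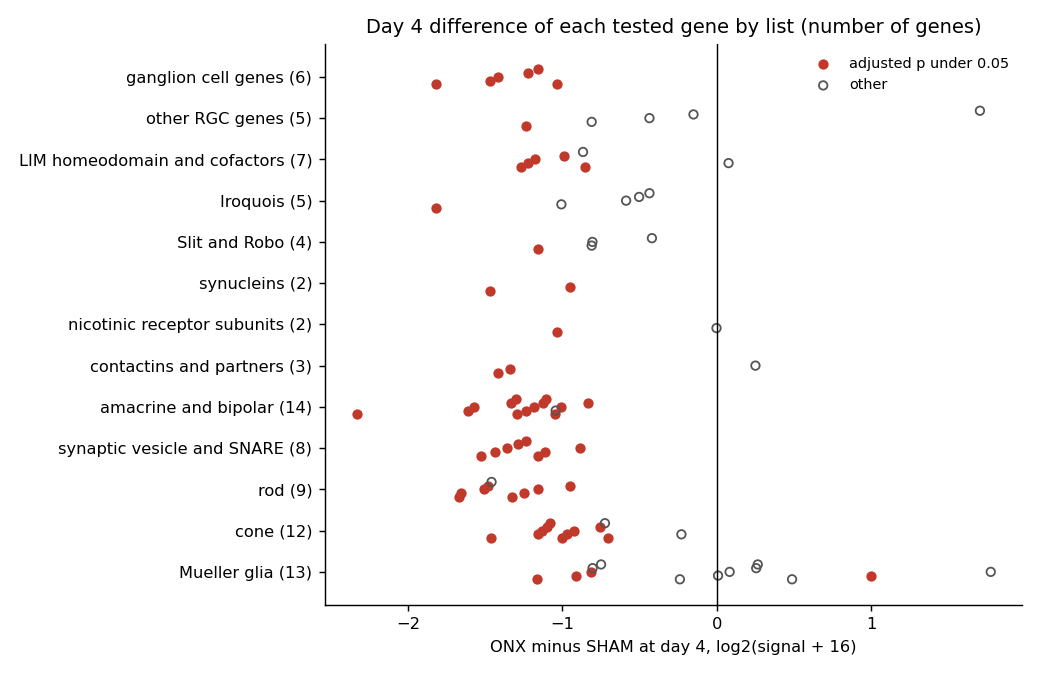
ONX minus SHAM difference at day 4 in log2(signal + 16), with 1 point for each tested gene of 13 lists and the number of genes in brackets; filled points had an adjusted p under 0.05 in limma's test. The 6 ganglion cell genes (-1.82 to -1.04) lie among the amacrine, bipolar, synaptic and rod genes, most cone genes lie nearer to 0, and Mueller glia genes lie on both sides of 0.

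The 6 genes' profiles over the 12 arrays were compared by the root mean square difference of centred log2 signals, a distance that is 0 for identical profiles. The nearest of their 15 pairs was isl1a with chrnb3a, at 0.113, and the farthest chrnb3a with cntn1b, at 0.389. Robo2 was nearest to the mean profile of the 6, at 0.131, and irx4a, with its deep day 4 value, farthest, at 0.258. Of 5961 other genes, those nearest to the mean profile were pik3r1, a regulatory subunit of PI3-kinase (0.096), gpm6ba, a membrane glycoprotein (0.099), id4 (0.106), the photoreceptor transcription factor crx (0.106), olfm1b (0.107) and vtnb (0.107). These are nearer to the mean than any of the 6 genes is, but they were picked as the nearest of 5961 candidates. For single genes the nearest were ppp3r1b to isl1a (0.103), oaz2b to irx4a (0.215), tspan7 to robo2 (0.086), eno1b to sncgb (0.116), scrn2 to chrnb3a (0.092) and aanat2 to cntn1b (0.174). The profiles share the same 12 arrays and are dominated by the ONX day 4 pools.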

How the data were processed

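Total RNA of whole eyes was hybridised to 12 Affymetrix zebrafish arrays, 1 per pool. The table deposited by the authors gives a signal intensity for every probe set on every array; MAS5 is the tool named, per the submitters' processing notes (version not given in the sources used here). Every array had a trimmed mean of 500.1 (2% cut at each end), so they were scaled alike before deposit. Detection calls and image files were not used here. Symbols came from the platform annotation, with 1 updated through RefSeq.

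The 115 control probe sets were set aside, and 9301 of the other 15502, the upper 60% by mean of log2(signal + 16) over all arrays, were tested. The limma package (3.58.1, R 4.3.3) fitted 1 mean per group with a trended prior (6 residual and 4.23 prior degrees of freedom). Calls used Benjamini-Hochberg adjustment at 0.05. The procedure was tested on simulated data with independent noise for each probe set and array. Those data held no single array that stood apart, so they do not test how the day 4 calls depend on single arrays or scaling. Genes other than the 6 were named by a rule: called genes of 7 related lists, or the 3 with the smallest p at day 4, and the nearest profiles; uncalled members of these lists are given for completeness.

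The 6 genes and all lists were chosen with earlier results of these data known. Alternatives covered the offset, the filter, the scaling, the moderation, array weights, the replicate number as a block, single arrays left out, the arrays used and the threshold; those without pool 1 or all arrays of day 12, without pool 1 of days 12 and 21, and with probe sets averaged were added after the data were seen. No sequences were printed, and no genome coordinates, as no build is named with the arrays.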

Additional observations from a re-analysis of the deposited data

How the results depend on the processing

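The signs of the day 4 differences were kept in every setting that tested the gene (irx4a and chrnb3a were not tested under the stricter filter), while the calls were not. Of the 6 genes, 0 were called at day 4 with poly-A scaling, with array weights, with the replicate block, with only the day 4 arrays, and without pool 1 of days 12 and 21 (adjusted p of 0.0718 to 0.107, limma), and leaving out single arrays gave 0 to 6, the 0 coming without ONX pool 1, SHAM pool 1 or SHAM pool 2 of day 4. Over all tested probe sets the day 4 count of 1582 was 2429 with hybridisation control scaling, 2813 at an adjusted p of 0.1, 10 with only the day 4 arrays or without pool 1 of days 12 and 21, 0 with poly-A scaling, array weights or the replicate block, and 0 to 4008 with single arrays left out. ONX and SHAM eyes come from the same fish, but the labels do not tie the pool numbers to fish. Deviations of same-numbered pools correlated at 0.124, -0.121 and -0.028 at days 4, 12 and 21, not over 0.1 at every day. By that rule the numbers were not taken as pairs in the main fit. With 2 pools per group such a correlation cannot show whether same-numbered pools hold the same fish. With the replicate block the 6 adjusted p-values at day 4 were 0.0545 in limma's test. The count of 1 across days in ONX eyes was 0 with no filter, hybridisation control scaling, poly-A scaling, array weights and the replicate block. At an adjusted p of 0.1 it was 6. A stricter filter on dim probe sets gave 4, in a fit that did not test irx4a, the gene called in the main fit, or chrnb3a. The count also changed where arrays were left out. With single arrays left out, the average over days gave 0 to 6 calls and the test between days 0 to 5, the highest in both without ONX day 4 pool 2. At days 12 and 21 and across SHAM days 0 of 6 were called in every setting that could be fitted. The median day 21 difference was -0.22 without pool 1 of days 12 and 21. The causes of the changed counts were not tested.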
